A study of Homo sapiens with 18 samples.

Results

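The cell cycle genes examined here were 40 human genes chosen by name, out of 19974 protein-coding genes on chromosomes 1 to 22 and X. All 40 were found in the gene table, and they were set beside the other 19934 protein-coding genes. They fell into 4 role groups: 5 E2F and retinoblastoma regulators, 11 cyclins, cyclin-dependent kinases and CDC25 phosphatases, 12 genes of replication licensing and DNA synthesis, and 12 mitotic kinases, checkpoint and spindle genes. A further 78 cell cycle genes outside these 40 served as a second list.

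Chromatin immunoprecipitation followed by sequencing (ChIP-seq) had been done for TLE3 and for FOXA1 in 3 established human breast cancer lines: MDA-MB-453, SKBR3 and T47D. The labels name no treatment and no genetic change. Each line had 2 biological replicates per factor, which makes 6 TLE3 libraries and 6 FOXA1 libraries. The 6 input samples were not analysed here. TLE3 was precipitated with a Proteintech antibody from cells that had received an additional protein crosslinker ahead of formaldehyde, and FOXA1 with a Diagenode antibody from cells without that step. Factor, antibody and fixation therefore cannot be told apart. Each line is a single established culture, so replicates measure the spread within that line.

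TLE3 is a corepressor of the Groucho family that does not bind DNA by itself and is brought to chromatin by transcription factors. FOXA1 is a forkhead pioneer factor that opens chromatin at enhancers of luminal breast cells. Cell cycle genes of the kind listed here are switched on in waves. E2F factors, held in check by the retinoblastoma protein RB1, drive the genes of DNA replication. A complex with the MYB relative MYBL2 drives those of mitosis through cell cycle homology region (CHR) elements close to the start. Such promoters can also hold CCAAT boxes, which NF-Y binds. The study asked where TLE3 binds in luminal breast cancer lines and how much of that binding is shared with FOXA1.

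The deposited lists held 21149 to 94363 TLE3 peaks and 107598 to 188029 FOXA1 peaks per library, with no read counts, so sequencing depth is unknown. A gene with more FOXA1 than TLE3 peaks is therefore read beside the other genes in the same lists. The SKBR3 TLE3 libraries stood apart from each other. Replicate 1 had 21149 peaks of which 33.9% were overlapped by replicate 2, and replicate 2 had 94363 peaks of which 7.54% were overlapped by replicate 1. Median peak width was 629 bp in SKBR3 TLE3 replicate 2, against 326 to 432 bp in the 11 other libraries. Each SKBR3 TLE3 replicate is accordingly also given alone. A site, below, is a region with a peak of both replicates, and it was counted for a gene where its centre lay in the hg38 gene body or within 10 kb of it. A gene-end peak was centred no more than 1 kb from a start or end of the annotated gene.

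TLE3 sites were present at a minority of the 40 genes in MDA-MB-453 and SKBR3 and at just over 50% in T47D, whereas FOXA1 sites were present at most of them in every line. In MDA-MB-453, 9 of 40 genes (22.5%) had a TLE3 site, against 32.3% of other genes, and 39 (97.5%) had a FOXA1 site, against 82.3% of other genes. In T47D, 23 (57.5%) had a TLE3 site, against 50.3% of other genes, and 38 (95%) had a FOXA1 site, against 80.4% of other genes. In SKBR3, 13 (32.5%) had a TLE3 site of both replicates, against 19.4% of other genes, and 35 (87.5%) had a FOXA1 site, against 70.6% of other genes. SKBR3 TLE3 replicate 1 alone placed a peak at 16 genes (34.3% of other genes), and replicate 2 alone at 39 (88.4% of other genes). With every list shortened to its 21149 highest scores, a FOXA1 site was at 32.5% of the 40 genes in MDA-MB-453, against 32.1% of other genes, so the difference there depended on list length.

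Replicates differed more for TLE3 than for FOXA1 in this window, where the FOXA1 counts were close to the ceiling of 40 genes. In MDA-MB-453, 22 and 9 of the 40 genes had a TLE3 peak in replicates 1 and 2, a mean of 15.5 ± 9.19 (SD, n = 2), and 40 and 39 had a FOXA1 peak, a mean of 39.5 ± 0.707 (SD, n = 2). The other protein-coding genes moved with the same lists, at 49.2% and 33.1% for TLE3 and 87.8% and 83.5% for FOXA1. SKBR3 gave 27.5 ± 16.3 genes for TLE3 and 37 ± 1.41 for FOXA1 (SD, n = 2 each), where 75.1% and 76.4% of other genes had a FOXA1 peak. T47D gave 23 and 36 genes for TLE3 (51.1% and 74.6% of other genes) and 40 and 39 genes for FOXA1 (85.2% and 84.7%). The shares among the 40 genes thus lay above the background in 5 of 6 TLE3 libraries, with MDA-MB-453 replicate 2 below it, and in 6 of 6 FOXA1 libraries.

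**Figure D1:**
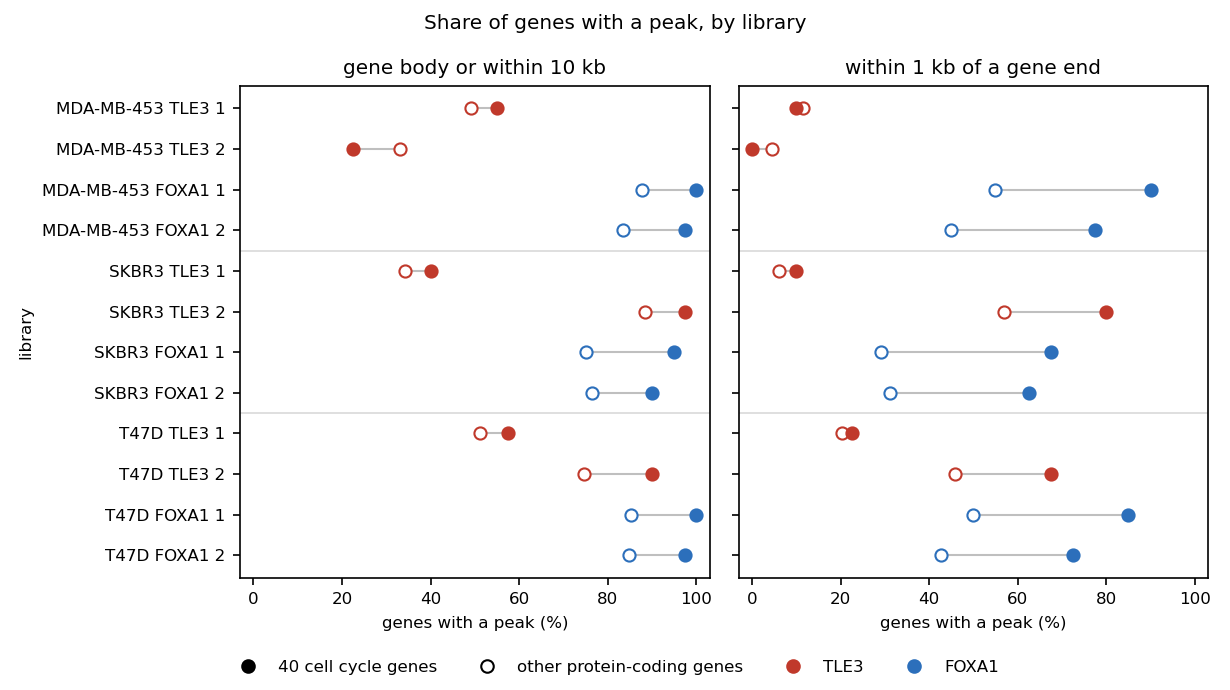
Percentage of genes with at least 1 peak in each of the 12 libraries, in the gene body or within 10 kb (left) and within 1 kb of a gene end (right). Filled points are the 40 cell cycle genes and open points the other protein-coding genes, red for TLE3 and blue for FOXA1. At gene ends the FOXA1 points of the 40 genes lie at 62.5 to 90%, right of the open points at 29.1 to 54.9%.

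The 40 genes had a median length of 20.3 kb (interquartile range 11.3 to 42.7 kb), against 24.2 kb for other genes. Among the 6663 other genes inside that interquartile range, 23.4% had a TLE3 site and 83.4% a FOXA1 site in MDA-MB-453. The 22.5% of the 40 genes with a TLE3 site in that line is close to this share, and the FOXA1 share remains above it. The same 6663 genes had a TLE3 site in 17% and a FOXA1 site in 69.4% of cases in SKBR3, and in 46.1% and 80.8% in T47D. Pooled over genes and counted per 100 kb of window, the 40 genes held 0.394 TLE3 sites in MDA-MB-453, against 0.806 at other genes. Pooled TLE3 densities were 0.7 in SKBR3, against 0.345, and 1.36 in T47D, against 1.29. For SKBR3 TLE3 replicate 1 alone they were 0.918 and 0.878. The median TLE3 density per gene was 0 for the 40 and for other genes in MDA-MB-453 and in SKBR3. In T47D that median was 1.11, against 0.233. Median FOXA1 densities were 7.19 against 4.71 in MDA-MB-453, 4.94 against 2.95 in SKBR3 and 5.24 against 4.07 in T47D. The pooled FOXA1 density of the 40 genes was 6.78 sites per 100 kb in MDA-MB-453, against 5.45 at other genes. In T47D it was 5.77, against 4.58. With the sites near gene ends removed, the FOXA1 densities in MDA-MB-453 were 4.81 at the 40 genes and 4.81 at the others, and in T47D they were 4.42 and 4.02. In SKBR3 the FOXA1 density was 4.94 against 3.71, and 3.94 against 3.37 without the sites near gene ends. The higher pooled FOXA1 density at these genes was thus seen with the gene ends and not without them in MDA-MB-453. In the other lines the difference was smaller without them. A FOXA1 site away from the ends was still at 36 of the 40 genes in MDA-MB-453 (76.2% of other genes). Such a site was at 29 in SKBR3 (65.5%) and 32 in T47D (73.9%), each above the background. Without the sites near gene ends, TLE3 densities were 0.394 against 0.756 in MDA-MB-453 and 0.525 against 0.292 in SKBR3. They were 0.918 against 1.04 in T47D and 0.743 against 0.8 for SKBR3 replicate 1 alone, and both turned from above to below the background.

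Gene-end peaks were fewer for TLE3 than for FOXA1 in both MDA-MB-453 libraries and in replicate 1 of SKBR3 and T47D, but SKBR3 TLE3 replicate 2 reached more genes than either FOXA1 library of that line. MDA-MB-453 TLE3 libraries placed a gene-end peak at 4 and 0 of the 40 genes (11.6% and 4.51% of other genes), and the FOXA1 libraries at 36 and 31 (54.9% and 45%). In SKBR3, TLE3 gave 4 genes in replicate 1 and 32 in replicate 2 (6.1% and 57% of other genes), and FOXA1 gave 27 and 25 (29.1% and 31.2%). In T47D, TLE3 gave 9 and 27 genes (20.3% and 45.8% of other genes), and FOXA1 gave 34 and 29 (49.8% and 42.7%). Every FOXA1 library therefore placed gene-end peaks at 62.5% or more of the 40 genes. TLE3 libraries with short lists stayed within a few percentage points of the background, and the longer lists of SKBR3 replicate 2 and T47D replicate 2 reached 80% and 67.5%.

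As sites of both replicates, gene-end binding of TLE3 was found at 0 of 40 genes in MDA-MB-453 (4.1% of other genes), 4 for SKBR3 (4.38%) and 9 for T47D (20%). The SKBR3 genes were AURKA, AURKB, MCM4 and TTK, and the T47D genes were AURKA, BUB1B, CCNE1, CDC25C, CDK4, MCM7, PCNA, RB1 and TTK, so AURKA and TTK were on both lists. FOXA1 gene-end sites were found at 31 genes (77.5%) in MDA-MB-453 (43.6% of other genes), 20 (50%) for SKBR3 (25%) and 28 (70%) for T47D (39.2%). The median distance from a gene end to the nearest TLE3 site was 52.4 kb for the 40 genes in MDA-MB-453, against 43.5 kb for other genes, and 6.08 kb in T47D, against 16.5 kb. To the nearest FOXA1 site it was 0.241 kb in MDA-MB-453, against 1.56 kb for other genes, 0.943 kb in SKBR3, against 4.96 kb, and 0.369 kb in T47D, against 2.14 kb.

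In the second list of 78 cell cycle genes, TLE3 sites were near the background in MDA-MB-453 and SKBR3, and FOXA1 sites were above it in each line. In MDA-MB-453, 26 had a TLE3 site (33.3%, against 32.3% of other genes) and 75 a FOXA1 site (96.2%, against 82.3%). In SKBR3 it was 15 (19.2%, against 19.4%) and 66 (84.6%, against 70.6%), and in T47D 49 (62.8%, against 50.3%) and 77 (98.7%, against 80.4%). FOXA1 gene-end sites were present at 54 of them (69.2%) in MDA-MB-453, 32 (41%) for SKBR3 and 50 (64.1%) for T47D. The 3 of these genes with most gene-end TLE3 peaks summed over the 6 TLE3 libraries were RBL2 with 12, CCND1 with 10 and POLE with 9. RBL2 is a relative of RB1, CCND1 is cyclin D1, and POLE is the catalytic subunit of the leading-strand polymerase. No gene among the 40 exceeded 6.

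**Figure D2:**
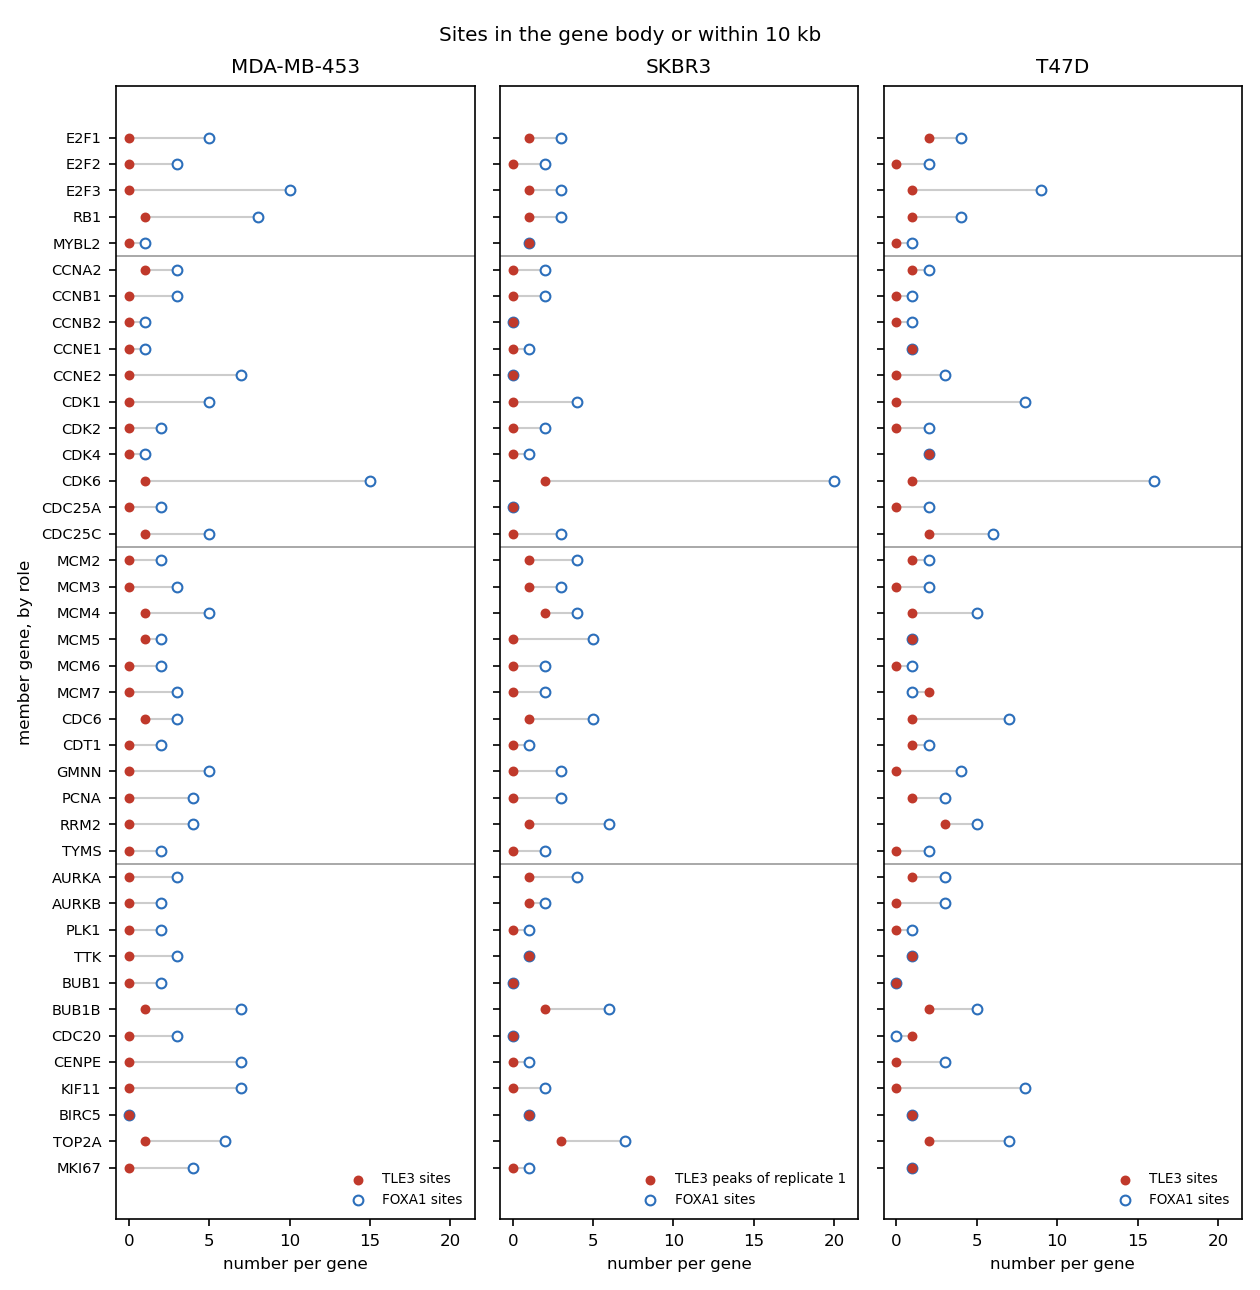
Number of sites per gene in the gene body or within 10 kb for the 40 cell cycle genes, grouped by role and shown by line, with TLE3 as filled red points (SKBR3: peaks of replicate 1 alone) and FOXA1 as open blue circles. TLE3 reaches 3 at most, and the largest FOXA1 counts are the 15, 20 and 16 sites of CDK6.

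Among the E2F and retinoblastoma regulators, all 5 genes had a FOXA1 site in each line, and TLE3 sites were found at RB1 in MDA-MB-453, E2F1 and RB1 in SKBR3, and E2F1, E2F3 and RB1 in T47D. E2F1, an activator of replication genes, had no TLE3 peak within 1 kb of a gene end in 4 of 6 TLE3 libraries and 3 in each of SKBR3 replicate 2 and T47D replicate 2. In the whole window it had 1 and 0 TLE3 peaks in MDA-MB-453, 1 and 5 in SKBR3 and 2 and 5 in T47D, against 8 and 5, 3 and 6, and 6 and 4 FOXA1 peaks, and the factors overlapped in SKBR3 and T47D. FOXA1 gave E2F1 4 and 2 gene-end peaks in MDA-MB-453, 0 and 1 in SKBR3, and 3 and 1 in T47D. The 2 T47D TLE3 sites counted for E2F1 lay 4427 and 7921 bp beyond a gene end, at 2524 and 613 bp from ACTL10. E2F2, also an activator, had 1 and 0 gene-end TLE3 peaks in MDA-MB-453, 0 and 2 in SKBR3, and 0 and 2 in T47D. Its FOXA1 counts were 1 and 1, 0 and 0, and 1 and 0 in the same lines, so the factors overlapped. E2F3 had 1, 0, 1, 3, 1 and 4 TLE3 peaks in its window in MDA-MB-453, SKBR3 and T47D (replicate 1, then 2), and 11, 11, 6, 6, 10 and 11 FOXA1 peaks. The E2F3 counts did not overlap between factors over the 3 lines. E2F3 was called lower for TLE3 by the permutation test below, as were 19.7% of all genes tested. RB1, the retinoblastoma protein that restrains E2F, carried a TLE3 site inside the gene in MDA-MB-453 (chr13:48400799-48401237) and SKBR3 (chr13:48400937-48401221), 80872 and 80811 bp from the nearest gene end, and both were overlapped by FOXA1. Its T47D TLE3 site sat at the 5′ end instead, with its centre 14 bp from it (chr13:48303607-48303924). MYBL2 was the only one of the 40 genes without a gene-end FOXA1 peak in any library, and T47D TLE3 replicate 2 placed 1 there.

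In the cyclin, kinase and phosphatase group, 3 of 11 genes had a TLE3 site in MDA-MB-453, 1 for SKBR3 and 5 for T47D, against 11, 8 and 11 with a FOXA1 site. CDK6, a G1 kinase and the longest of the 40 genes at 231653 bp, held most FOXA1 sites. Its window contained 6 and 1 TLE3 peaks in MDA-MB-453, 2 and 14 in SKBR3, and 1 and 6 in T47D, against 19 and 17, 22 and 28, and 20 and 18 FOXA1 peaks. The CDK6 TLE3 sites were at different places in the lines: chr7:92760076-92760644 in MDA-MB-453, chr7:92652361-92652907 in SKBR3 and chr7:92608539-92609083 in T47D. All 3 lay inside the gene and overlapped a FOXA1 site. CDK1, the mitotic kinase, had 1 and 0 TLE3 peaks in MDA-MB-453, 0 and 2 in SKBR3 and 0 and 0 in T47D, against 9 and 6, 5 and 5, and 11 and 8 FOXA1 peaks.

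CCNE1, the cyclin E1 gene that drives entry into S phase, had 1 gene-end FOXA1 peak in each of the 6 FOXA1 libraries. Its gene-end TLE3 peaks numbered 0 and 0 in MDA-MB-453, 0 and 2 in SKBR3 and 1 and 1 in T47D. The T47D TLE3 site at CCNE1 (chr19:29811417-29811909) overlapped the FOXA1 site chr19:29811242-29811801 upstream of the start. CCNA2, cyclin A2, carried the FOXA1 site with the highest score rank of all sites at the 40 genes. That site, chr4:121821421-121822758 in MDA-MB-453, lay inside the gene and stood at percentile 99.8 of its list. The overlapping TLE3 site chr4:121821657-121822322 stood at percentile 86.4. A score percentile here is the share of a library's peaks with the same or a lower score, averaged over the replicates of a site. CDK4, a G1 kinase, had 2 TLE3 sites in T47D, at 161 bp from the start (chr12:57752100-57752843, percentile 72.8) and 2619 bp upstream of it (chr12:57754640-57755218, percentile 51.5). CDC25C, a phosphatase that activates CDK1, had 2 and 1 TLE3 peaks in MDA-MB-453, 0 and 2 in SKBR3 and 2 and 4 in T47D, against 6 and 5, 4 and 3, and 6 and 6 FOXA1 peaks. Within each line the CDC25C counts did not overlap between factors, though over the 3 lines together they did. CDC25C was called lower for TLE3 by the permutation test below, as were 19.7% of all genes tested. The gene shared its T47D TLE3 site chr5:138337456-138338586 with a FOXA1 site at percentile 98.7, and the centre of that TLE3 site was 464 bp from the neighbouring gene FAM53C.

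In the licensing and DNA synthesis group, TLE3 sites were found at 3 of 12 genes in MDA-MB-453, 4 for SKBR3 and 8 for T47D, and FOXA1 sites at 12 of 12 in each line. MCM4, a subunit of the replicative helicase, had 1 and 1 TLE3 peaks in its window in MDA-MB-453, 2 and 1 in SKBR3 and 1 and 5 in T47D, against 5 and 6, 4 and 4, and 5 and 6 FOXA1 peaks. Its gene-end TLE3 peaks numbered 0 and 0, 1 and 1, and 0 and 2 in the same lines, against 2 and 2, 2 and 2, and 1 and 2 for FOXA1. In the window, the T47D TLE3 replicate 2 count met the FOXA1 range, and the other 5 TLE3 counts were below it. MCM7, of the same helicase, had 2 gene-end TLE3 peaks in each T47D library, 0 and 1 in SKBR3 and 0 and 0 in MDA-MB-453. FOXA1 gave MCM7 2 and 1 gene-end peaks in T47D, 1 and 2 in SKBR3 and 2 and 2 in MDA-MB-453. The FOXA1 sites at MCM7 were at nearly the same position in the 3 lines, and that of T47D (chr7:100100136-100101111) stood at percentile 98.6. Its centre was 170 bp from the nearest annotated end of the neighbouring gene AP4M1. CDC6, which loads the helicase, had 2 and 1, 1 and 7, and 1 and 3 TLE3 peaks in MDA-MB-453, SKBR3 and T47D, against 4 and 5, 6 and 7, and 10 and 7 FOXA1 peaks. It had its TLE3 sites beyond its 3′ end, between 287 and 5443 bp from RARA. These sites are thus counted for CDC6 by the window and are nearer to RARA.

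RRM2, a subunit of ribonucleotide reductase, had 1 and 0 TLE3 peaks in MDA-MB-453, 1 and 11 in SKBR3 and 3 and 3 in T47D, against 6 and 4, 9 and 8, and 7 and 6 FOXA1 peaks. A TLE3 peak 4994 bp upstream of RRM2 in SKBR3 replicate 1 stood at percentile 87.1, and a T47D site at the same place stood at percentile 80. The gene table gives RRM2 a broad span of 88443 bp. PCNA, the sliding clamp of the polymerases, had 1 gene-end TLE3 peak in each T47D library and in SKBR3 replicate 2, and at least 1 gene-end FOXA1 peak in all 6 FOXA1 libraries. GMNN, which blocks relicensing, had 2 and 0, 0 and 1, and 0 and 3 TLE3 peaks in its window in MDA-MB-453, SKBR3 and T47D, against 5 and 6, 3 and 5, and 4 and 4 FOXA1 peaks.

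In the mitotic group, TLE3 sites were found at 2 of 12 genes in MDA-MB-453, 6 for SKBR3 and 7 for T47D, and FOXA1 sites at 11, 10 and 10. TOP2A, the topoisomerase that untangles sister chromatids, had most TLE3 sites when SKBR3 replicate 1 was taken alone, with 6 against 5 at BUB1B. Its window held 1 and 1 TLE3 peaks in MDA-MB-453, 3 and 7 in SKBR3 and 2 and 3 in T47D, against 7 and 6, 7 and 7, and 7 and 7 FOXA1 peaks. A TLE3 site inside TOP2A, 2224 to 2240 bp from the start, recurred at nearly the same position in the 3 lines. It was chr17:40415481-40415863 in MDA-MB-453 (percentile 54.9), chr17:40415418-40415907 in SKBR3 replicate 1 (97.8) and chr17:40415467-40415844 in T47D (51.9), and FOXA1 overlapped it in each line. BUB1B, the spindle checkpoint kinase BUBR1, had 1 and 1, 2 and 5, and 2 and 2 TLE3 peaks in MDA-MB-453, SKBR3 and T47D, against 9 and 7, 6 and 6, and 7 and 7 FOXA1 peaks. At the gene ends BUB1B had 0 and 0, 0 and 1, and 1 and 1 TLE3 peaks, against 2 and 2, 1 and 1, and 1 and 2 FOXA1 peaks. A TLE3 site upstream of BUB1B recurred in the 3 lines, 5717 bp from it in MDA-MB-453, 5627 bp in SKBR3 and 5767 bp in T47D (chr15:40155025-40155578). A high-ranking FOXA1 site covered the BUB1B start in each line, at percentile 94.4 in MDA-MB-453, 98.2 for SKBR3 and 96.7 for T47D.

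TTK, the checkpoint kinase MPS1, had a gene-end TLE3 peak in 5 of 6 TLE3 libraries (2.42% of other genes, and 1.45% in all 6), more than any other of the 40 genes. The counts were 1 and 0 in MDA-MB-453, 1 and 2 in SKBR3 and 1 and 1 in T47D, against 1 and 2, 1 and 1, and 1 and 0 for FOXA1. The T47D TLE3 site at TTK (chr6:80004144-80004689, percentile 74.9) was not overlapped by a FOXA1 site. AURKA, the aurora A kinase, had a gene-end TLE3 peak in 4 libraries (5.18% of other genes), with 0 and 0 in MDA-MB-453, 1 and 2 in SKBR3 and 1 and 1 in T47D, against 1 and 1, 1 and 1, and 1 and 3 for FOXA1. Its T47D TLE3 site (chr20:56392164-56392813) had its centre 273 bp from AURKA and 109 bp from the divergent gene CSTF1. BIRC5, the chromosomal passenger survivin, had 1 and 0 TLE3 peaks in its window in MDA-MB-453, 1 and 4 in SKBR3 and 1 and 2 in T47D, against 1 and 0, 1 and 1, and 2 and 1 FOXA1 peaks. It was the only gene of the 40 with more TLE3 than FOXA1 peaks on average, and this rested on the 4 peaks of SKBR3 TLE3 replicate 2, since the other counts of both factors were 0 to 2. Its T47D TLE3 site chr17:78210811-78211707 stood at percentile 94, the highest among the T47D TLE3 sites at the 40 genes. That site lay outside the gene, 2994 bp from BIRC5 and 3557 bp from AFMID. BUB1, a checkpoint kinase, and CCNB1, cyclin B1, were the only 2 of the 40 genes with no gene-end TLE3 peak in any library, against 33.4% of other genes.

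**Figure D3:**
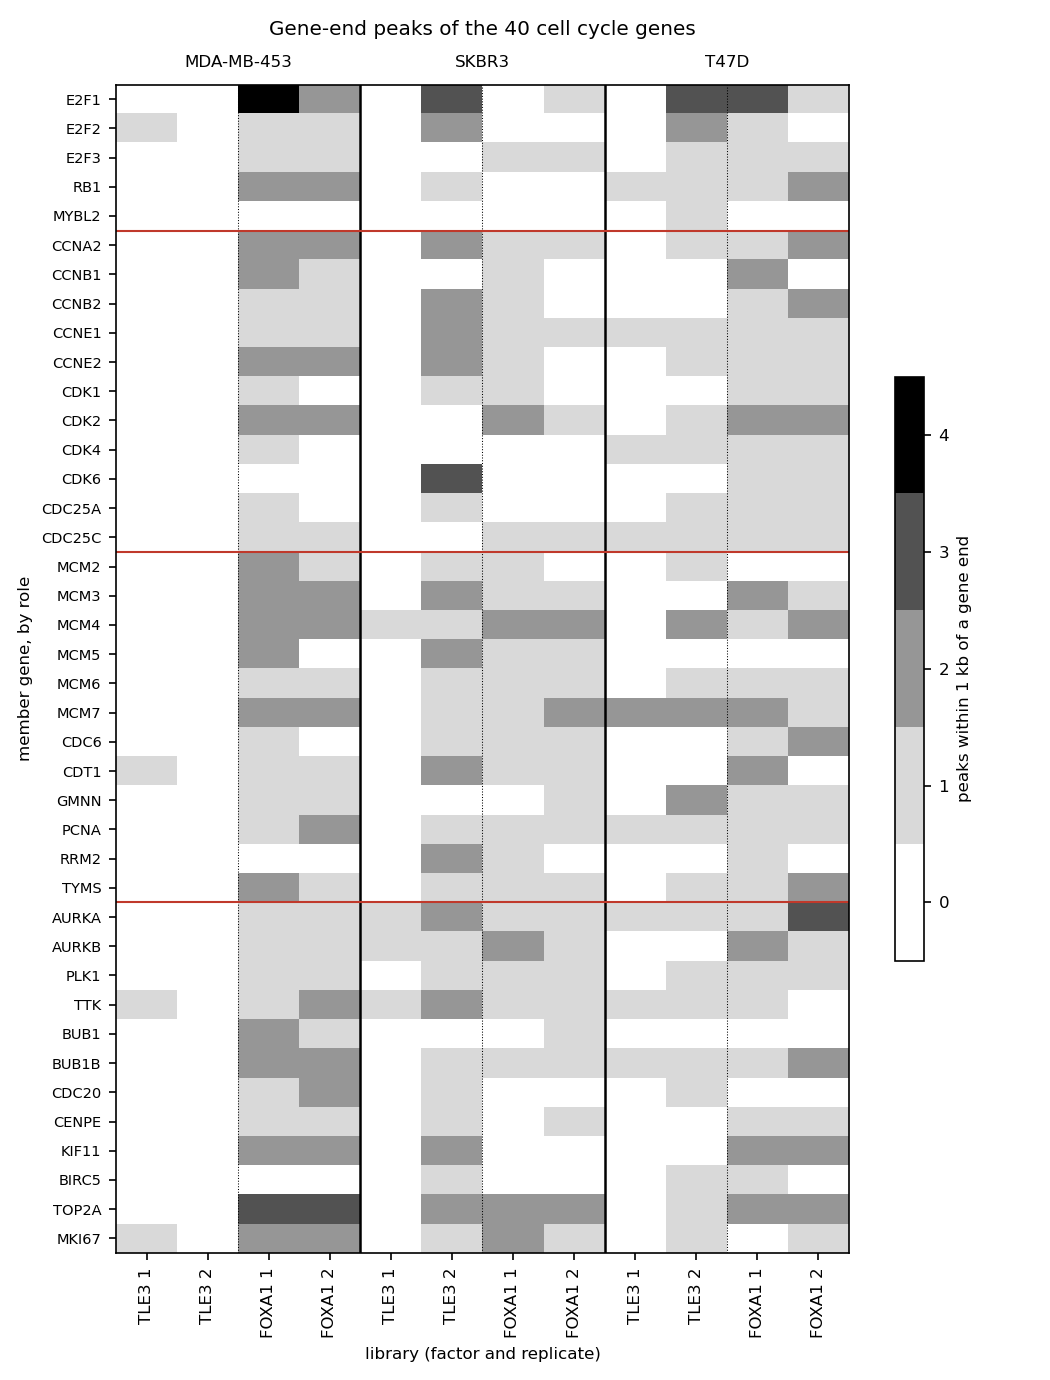
Number of peaks within 1 kb of a gene end for each of the 40 cell cycle genes (rows, by role, with red lines between roles) in the 12 libraries (columns, TLE3 replicates left of FOXA1 replicates in each line); the shade gives 0 to 4 peaks. The TLE3 columns are nearly empty in MDA-MB-453 and in SKBR3 replicate 1, and TTK is filled in 5 of 6 TLE3 columns.

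TLE3 sites recurred between lines at fewer of the 40 genes than FOXA1 sites. For TLE3, with SKBR3 replicate 1 alone, 6 genes (BUB1B, CDC6, CDK6, MCM4, RB1 and TOP2A) had a site in all 3 lines, against 20.1% of other genes, and 14 had none in any, against 39.9%. With SKBR3 sites of both replicates, the same 6 genes (15%) had a site in all 3 lines, against 11.7% of other genes, and 15 had none, against 42.1%, so the side of the background on which the 6 genes fell depended on the SKBR3 rule. No gene of the 40 had a gene-end TLE3 site in all 3 lines (1.73% of other genes), and AURKA and TTK had one in 2 lines. For FOXA1, 34 of the 40 genes had a site in the window in all 3 lines, against 64.5% of other genes, and 15 had a gene-end site in all 3, against 19.5%. BUB1 and CDC20 had a FOXA1 site in 1 line alone, MDA-MB-453.

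At full list length, most TLE3 sites of both replicates at these genes overlapped a FOXA1 site of the same line. The count was 9 of 9 in MDA-MB-453 (99% of TLE3 sites at other genes), 14 of 16 in SKBR3 (88.6%) and 26 of 31 in T47D (84.4%). For SKBR3 TLE3 replicate 1 alone it was 17 of 21 (91.6% at other genes), and for replicate 2 alone 45 of 150 (22.1%). In the other direction, 9 of 155 FOXA1 sites at the 40 genes overlapped a TLE3 site in MDA-MB-453 (5.81%), against 15.2% at other genes. In T47D it was 27 of 132 (20.5%), against 23% at other genes. In MDA-MB-453, none of the 45 gene-end FOXA1 sites of the 40 genes overlapped TLE3, against 7.69% at other genes.

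FOXA1 sites of the 40 genes lay at gene ends in a larger share than those of other genes in every line, and TLE3 sites did so in SKBR3 and T47D but not in MDA-MB-453. For TLE3, 0 of 9 sites were at a gene end in MDA-MB-453, against 6.4% at other genes, 4 of 16 (25%) in SKBR3, against 16.8%, and 10 of 31 (32.3%) in T47D, against 20.3%. Of their FOXA1 sites, 45 of 155 (29%) were at a gene end in MDA-MB-453, against 12% at other genes, 23 of 113 (20.4%) in SKBR3, against 9.32%, and 31 of 132 (23.5%) in T47D, against 12.5%. Gene-end TLE3 sites ranked low by score. In T47D their median percentile was 45, against 59.9 for TLE3 sites elsewhere in the windows, and in SKBR3 replicate 2 it was 24.5, against 53.5. Over all genes the same medians were 51.3 and 64.6 in T47D and 39.5 and 51.2 in SKBR3 replicate 2. Gene-end FOXA1 sites of the 40 genes had a median percentile of 66.1 in T47D, against 58.1 elsewhere, 57.7 in SKBR3, against 53.9, and 49.6 in MDA-MB-453, against 55.9.

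**Figure D4:**
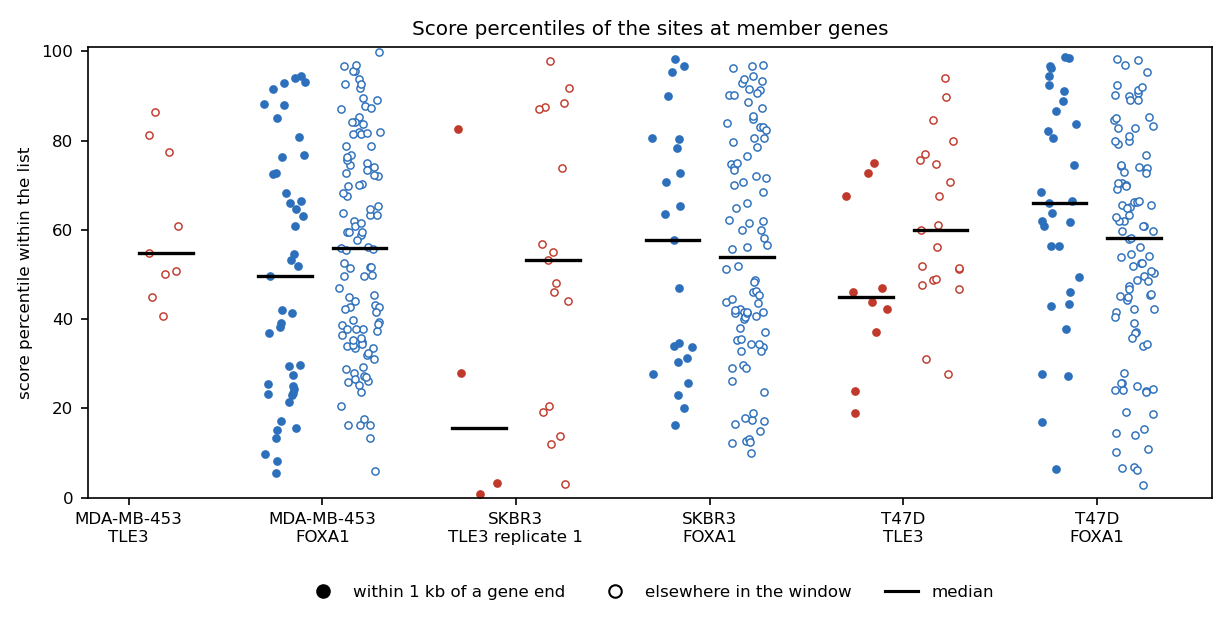
Score percentile within the own list (vertical axis, percent) of each site at the 40 cell cycle genes, by line and factor, for sites within 1 kb of a gene end (filled) and elsewhere in the window (open), with medians as bars. No gene-end TLE3 site exists in MDA-MB-453, the 4 of SKBR3 replicate 1 have a median of 15.6, and the 31 of T47D FOXA1 have a median of 66.1.

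Peaks were also placed by their distance from the start of transcription. RefSeq promoters were listed for 33 of the 40 genes, and 32 had a start within 5 kb of the annotated 5′ end. Of the peaks within 10 kb of those 32 starts, the TLE3 libraries had 2 of 13 and 0 of 3 within 1 kb in MDA-MB-453, 1 of 9 and 33 of 78 in SKBR3, and 7 of 20 and 24 of 52 in T47D. FOXA1 libraries had 38 of 90 and 32 of 75 within 1 kb in MDA-MB-453, 21 of 57 and 17 of 53 in SKBR3, and 30 of 81 and 27 of 71 in T47D. The share at the start was 42.3% in SKBR3 TLE3 replicate 2 and 46.2% in T47D TLE3 replicate 2, against 32.1 to 42.7% in the FOXA1 libraries.

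**Figure D5:**
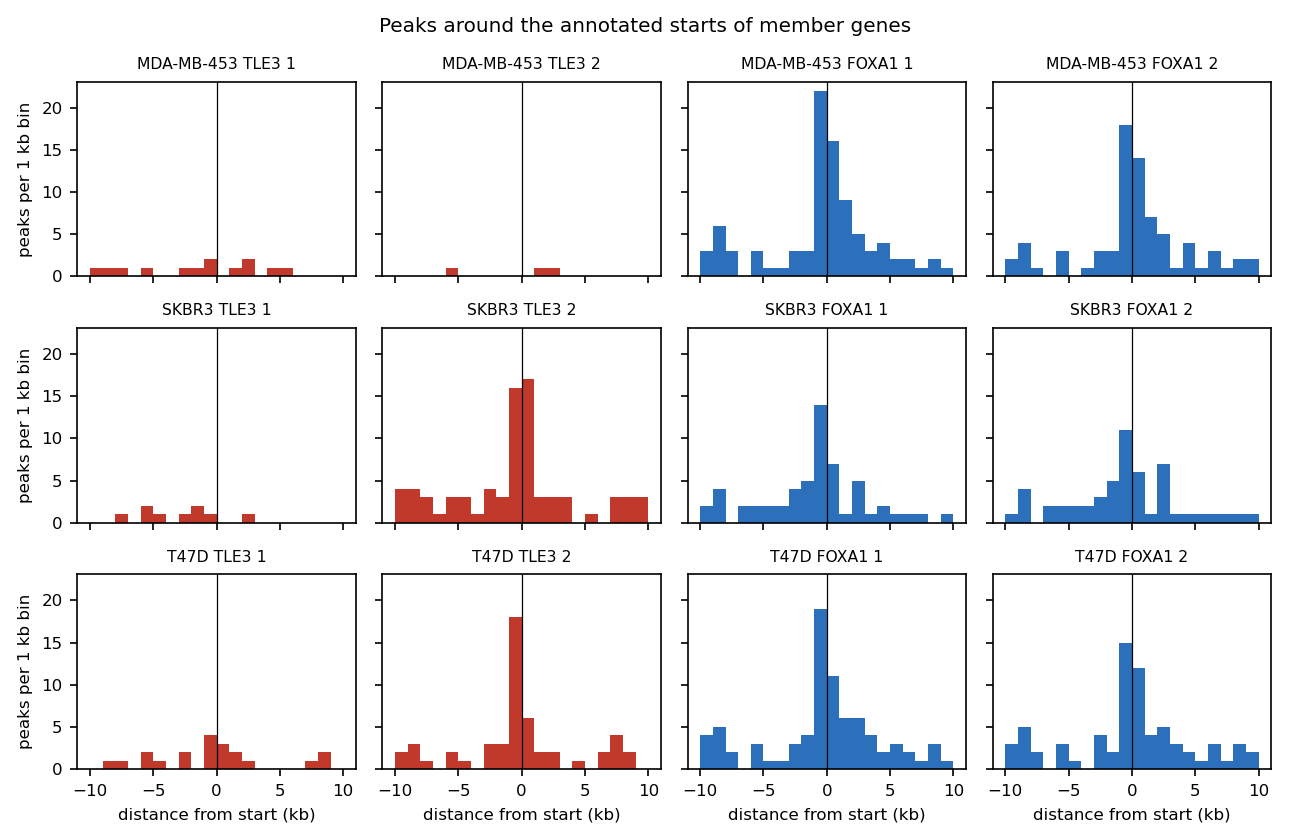
Peaks per 1 kb bin by distance from the start of transcription (horizontal axis, kb, downstream positive) for 32 of the 40 cell cycle genes, with a panel per library, TLE3 in red and FOXA1 in blue. TLE3 panels hold 0 to 7 peaks within 1 kb of the start except in SKBR3 replicate 2 (33) and T47D replicate 2 (24), and FOXA1 panels hold 17 to 38 there.

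The promoters held CCAAT, E2F and CHR letters in larger shares than other promoters, and the forkhead motif in a share near the background. In the RefSeq window of GRCh38.p14 from 250 bases before to 50 after the start, letters were searched on both strands. CCAAT, the box bound by NF-Y, was present in 20 of 32 promoters (62.5%), against 36.4% of 14968 other promoters and 36.5% of all. TTTNNCGC, an E2F element, was present in 13 (40.6%), against 9.01% of other promoters and 9.07% of all. TTTGAA or TTCGAA, taken as CHR elements, was present in 11 (34.4%), against 13.3% of other and of all promoters. TGTTTAC or TGTTTGC, a forkhead motif, was present in 1 promoter, that of CDK1 (3.12%), against 5.63% of other and of all promoters.

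TLE3 sites overlapped 0 of these 32 promoter windows in MDA-MB-453 (1.66% of others), 1 in SKBR3, that of AURKB (3.31%), and 6 in T47D (16.8%), those of BUB1B, CCNE1, CDC25C, CDK4, MCM7 and PCNA. SKBR3 TLE3 replicate 1 alone overlapped 0 windows (2.79% of others). SKBR3 TLE3 replicate 2 alone overlapped 23 windows (71.9%), against 46% of others. FOXA1 sites overlapped 20 windows in MDA-MB-453 (62.5%), against 35% of the other windows, 11 in SKBR3 (34.4%), against 14.9%, and 18 in T47D (56.2%), against 29.5%. Of the windows of the 40 genes overlapped by FOXA1, 0 of 20 held the forkhead letters in MDA-MB-453, 0 of 11 for SKBR3 and 1 of 18 for T47D. Among other promoters overlapped by FOXA1 the letters were present in 7.38% for MDA-MB-453, 13.1% for SKBR3 and 8.71% for T47D. Among those not overlapped they were present in 4.69%, 4.33% and 4.35% for the same lines. A match is a description of these letters in this window, and a missing match says nothing about binding.

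Promoters are printed for 6 of the 8 genes with gene-end TLE3 peaks in 3 TLE3 libraries, leaving out MCM4 and RB1, and, for contrast, for BUB1 and CCNB1, which had none. They read 5′ to 3′ along the gene, from RefSeq (GRCh38.p14), with every match to the 4 motifs in capitals.
BUB1B (chr15:40160819-40161118, plus strand): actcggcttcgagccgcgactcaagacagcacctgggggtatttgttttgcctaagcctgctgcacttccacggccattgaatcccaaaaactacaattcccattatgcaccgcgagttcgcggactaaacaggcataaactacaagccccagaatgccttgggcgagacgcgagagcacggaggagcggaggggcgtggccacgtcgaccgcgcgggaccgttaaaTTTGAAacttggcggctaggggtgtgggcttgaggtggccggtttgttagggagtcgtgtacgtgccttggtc
CCNE1 (chr19:29811741-29812040, plus strand): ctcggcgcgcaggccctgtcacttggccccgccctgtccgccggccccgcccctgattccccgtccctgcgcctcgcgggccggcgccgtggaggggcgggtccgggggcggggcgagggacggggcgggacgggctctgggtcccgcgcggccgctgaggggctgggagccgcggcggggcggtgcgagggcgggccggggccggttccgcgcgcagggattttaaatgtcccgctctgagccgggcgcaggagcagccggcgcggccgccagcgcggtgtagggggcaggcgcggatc
E2F2 (chr1:23531184-23531483, minus strand): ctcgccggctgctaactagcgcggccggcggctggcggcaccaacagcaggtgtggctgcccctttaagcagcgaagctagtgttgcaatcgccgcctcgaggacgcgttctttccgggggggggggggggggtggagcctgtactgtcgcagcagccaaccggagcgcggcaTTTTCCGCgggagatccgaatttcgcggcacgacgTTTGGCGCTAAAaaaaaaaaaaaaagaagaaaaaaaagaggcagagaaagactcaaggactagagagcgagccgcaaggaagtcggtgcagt
MCM7 (chr7:100101348-100101647, minus strand): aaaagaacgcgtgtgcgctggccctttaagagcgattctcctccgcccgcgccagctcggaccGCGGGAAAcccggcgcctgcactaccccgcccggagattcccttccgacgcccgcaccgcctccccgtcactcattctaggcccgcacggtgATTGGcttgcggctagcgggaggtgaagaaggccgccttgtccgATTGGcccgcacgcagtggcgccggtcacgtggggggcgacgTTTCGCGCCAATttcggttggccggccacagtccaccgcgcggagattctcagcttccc
MKI67 (chr10:128126374-128126673, minus strand): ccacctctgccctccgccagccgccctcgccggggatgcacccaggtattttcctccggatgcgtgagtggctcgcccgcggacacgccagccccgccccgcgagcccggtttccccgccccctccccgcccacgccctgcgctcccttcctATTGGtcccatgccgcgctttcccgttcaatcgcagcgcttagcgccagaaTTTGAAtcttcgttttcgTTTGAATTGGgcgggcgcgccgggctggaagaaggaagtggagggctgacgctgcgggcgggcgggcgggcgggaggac
PCNA (chr20:5126573-5126872, minus strand): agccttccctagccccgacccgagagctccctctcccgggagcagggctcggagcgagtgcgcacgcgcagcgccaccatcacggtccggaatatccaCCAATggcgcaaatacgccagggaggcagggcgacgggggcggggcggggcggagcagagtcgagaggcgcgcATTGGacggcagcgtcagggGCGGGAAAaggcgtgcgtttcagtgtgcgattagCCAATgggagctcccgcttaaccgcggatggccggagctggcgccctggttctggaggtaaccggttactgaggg
BUB1 (chr2:110678014-110678313, minus strand): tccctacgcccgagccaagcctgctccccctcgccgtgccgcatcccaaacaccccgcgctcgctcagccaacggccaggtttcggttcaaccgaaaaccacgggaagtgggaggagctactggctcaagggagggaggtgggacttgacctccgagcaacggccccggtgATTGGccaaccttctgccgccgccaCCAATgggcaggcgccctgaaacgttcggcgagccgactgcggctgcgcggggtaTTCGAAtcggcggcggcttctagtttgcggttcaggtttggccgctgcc
CCNB1 (chr5:69166900-69167199, plus strand): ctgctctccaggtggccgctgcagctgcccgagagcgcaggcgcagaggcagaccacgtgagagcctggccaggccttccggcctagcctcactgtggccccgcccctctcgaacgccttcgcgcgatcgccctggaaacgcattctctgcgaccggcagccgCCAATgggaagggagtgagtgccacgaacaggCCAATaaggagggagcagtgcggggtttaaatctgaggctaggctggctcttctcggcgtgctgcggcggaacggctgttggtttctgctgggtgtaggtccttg
In PCNA the CCAAT boxes began at bases -152, -79 and -25 from the start base, counted as 0, with an E2F element at -59. MCM7 had CCAAT boxes at -95, -51 and -2 and E2F elements at -187 and -9, the last of each sharing a base. E2F2 held 3 E2F elements, of which those at -42 and -38 overlapped. MKI67, the proliferation antigen Ki-67, had CHR elements at -47 and -29 and CCAAT boxes at -98 and -24, and BUB1B had a CHR element at -23. BUB1 and CCNB1 each held 2 CCAAT boxes, and BUB1 also held a CHR element at 1. CCAAT boxes and CHR elements were thus present with and without gene-end TLE3 peaks. CCNE1 held none of the 4 motifs and had gene-end TLE3 peaks in 3 libraries.

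The number of peaks per gene was compared between factors with an exact two-sided permutation test of the factor labels within lines, with Benjamini-Hochberg adjustment over all 19105 protein-coding genes with a peak. At an adjusted p under 0.05, this permutation test called 8 of the 40 genes lower for TLE3 in the window. It called 19.7% of all genes tested, so the share of 8 in 40 was near the background. These 8 were BUB1B, CCNB1, CDC25C, CDK1, CDK2, CDK6, E2F3 and GMNN, each with adjusted p = 0.047 by this permutation test. The raw p of 0.00926 is the smallest that the 216 arrangements allow. No gene of the 40, and none of the 19105, had significantly more TLE3 peaks by this permutation test, and at an unadjusted p under 0.05 the numbers were 20 of the 40 genes and 7755 of all genes lower, and 0 of the 40 genes and 1 of all genes higher.

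CDK6 had 5 ± 4.98 TLE3 and 20.7 ± 3.98 FOXA1 peaks per library (SD, n = 6 each), a difference of -15.7. CDK1 had 0.5 ± 0.837 TLE3 and 7.33 ± 2.42 FOXA1 peaks, and E2F3 had 1.67 ± 1.51 and 9.17 ± 2.48. CDK2, the S phase kinase, had 0.167 ± 0.408 TLE3 and 2.17 ± 0.408 FOXA1 peaks (SD, n = 6 each). BIRC5 had 1.5 ± 1.38 TLE3 and 1 ± 0.632 FOXA1 peaks, a difference of 0.5 that was within the spread (exact permutation p = 0.75). The median difference of TLE3 minus FOXA1 peaks was -2 over the 40 genes and -1.67 over all genes tested. The calls depended on list length. With each gene's peaks expressed per 100000 peaks of the list, or with every list shortened to its 21149 highest scores, none of the 40 genes and none of all genes were called. Without SKBR3 TLE3 replicate 2, by contrast, 27 of the 40 genes and 11269 genes in all (60.3%) were lower for TLE3. Leaving out either MDA-MB-453 TLE3 library, replicate 1 of SKBR3 or T47D TLE3, or any FOXA1 library of SKBR3 or T47D ended all calls.

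For gene-end peaks the same permutation test called 0 of the 40 genes and 0 of 15131 genes (0% called, smallest adjusted p = 0.295). At an unadjusted p under 0.05 there were 1488 genes lower (9.83%) and 8 higher for TLE3. Among them were 4 of the 40 genes, all lower: AURKB, CDK2, E2F3 and TOP2A. The share of 4 in 40 was near the background. CDK2 had 0.167 ± 0.408 TLE3 and 1.83 ± 0.408 FOXA1 gene-end peaks (SD, n = 6 each; exact permutation p = 0.00926). TOP2A had 0.5 ± 0.837 and 2.33 ± 0.516 (exact permutation p = 0.0278). TTK had 1 ± 0.632 gene-end peaks for TLE3 and 1 ± 0.632 for FOXA1. The median difference was -0.667 over the 40 genes and -0.333 over all genes tested.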

How the data were processed

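ChIP-seq peak lists of 12 libraries (TLE3 and FOXA1, 2 replicates in each of 3 lines) were used. The submitters' processing notes name MACS2, SAMtools, Trim Galore and BWA 0.7.5a with build hg38. The sources used here give neither the peak caller's settings nor its control. The deposited lists give 1 score per peak by the authors, whose quantity is not named, with a lowest value of about 2 in each list. Scores were used only as ranks within a list. Only chromosomes 1 to 22 and X were kept, which dropped 15 of 1134209 peaks.

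The members and the lists were chosen with earlier results of these data known. Genes came from RefSeq GRCh38.p14. Sites were regions holding peaks of both replicates that overlap by at least 1 bp. All 40 members are described by role. Library values are given for the 8 with most TLE3 sites, taking SKBR3 replicate 1 alone, and the 8 with most gene-end TLE3 peaks. They are also given for the 5 with most FOXA1 sites and for others singled out after their values were seen. Lists got no test. The permutation test was checked on simulated data. Correlations of same-numbered replicates' deviations were -0.0121 to 0.0458. With 2 replicates per factor and line they cannot decide whether same-numbered libraries were paired. Alternatives were the upper 50% of scores, equal list lengths, sites of either replicate, 50% overlap, other windows, scaling per 100000 peaks, the replicate block and leaving out each library. Python 3.11.15, numpy 2.4.6, pandas 2.3.3 and matplotlib 3.10.9 were used.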

Additional observations from a re-analysis of the deposited data

How the results depend on the processing

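Counts of genes with a site changed most with list length. With the upper 50% of each list by score, a TLE3 site remained in the window of 4 of the 40 genes in MDA-MB-453 (10%, against 20.5% of other genes), 3 in SKBR3 (7.5%, against 3.78%) and 12 in T47D (30%, against 30.2%). The mean number of genes with a gene-end peak per library was then 0 for TLE3 and 21 for FOXA1 in MDA-MB-453. It was 4 and 12.5 in SKBR3, and 6 and 20 in T47D. For FOXA1 the mean shares in MDA-MB-453, SKBR3 and T47D were 52.5%, 31.2% and 50% of the 40 genes. Among other genes they were 29%, 14.3% and 27%, so the FOXA1 shares stayed above the background. For TLE3 the mean share was 0% of the 40 genes in MDA-MB-453, against 2.55% of other genes, and 15% in T47D, against 14.3%. In SKBR3 it was 10%, against 14.5%. At full list length the SKBR3 TLE3 share was 45%, against 31.5%, so it turned from above to below the background. With all lists cut to 21149 peaks, sites were at 13 genes for MDA-MB-453 FOXA1 (32.5%, against 32.1% of other genes, so the higher share was no longer seen), 3 for SKBR3 TLE3 (7.5%, against 3.28%), 16 for SKBR3 FOXA1 (40%, against 31.9%), 15 for T47D TLE3 (37.5%, against 34.8%) and 16 for T47D FOXA1 (40%, against 34.5%). Gene-end means were then 0 for TLE3 and 6.5 for FOXA1 in MDA-MB-453, 2.5 and 5 in SKBR3, and 5.5 and 8.5 in T47D. The mean FOXA1 shares in MDA-MB-453, SKBR3 and T47D were 16.2%, 12.5% and 21.2% of the 40 genes. Among other genes they were 5.79%, 5.21% and 8.28%, so the gene-end FOXA1 shares were again above the background. For TLE3 the mean share was 0% of the 40 genes in MDA-MB-453, against 3.62% of other genes. It was 6.25% in SKBR3, against 9.14%, and 13.8% in T47D, against 12.3%. With sites of either replicate, TLE3 was at 22 genes in MDA-MB-453 (55%, against 49.7% of other genes). It was at 39 in SKBR3 (97.5%, against 89.1%) and 36 in T47D (90%, against 74.9%), so the other genes moved too. In the gene body alone, sites were at 4 genes for SKBR3 TLE3 (10%, against 12.7% of other genes), 10 for T47D TLE3 (25%, against 33%) and 23 for T47D FOXA1 (57.5%, against 57.4%), so these TLE3 shares turned from above to below the background and the T47D FOXA1 share met it. A 50 kb window gave 19 genes for MDA-MB-453 TLE3 (47.5%, against 55.3% of other genes). Gene ends of 3 kb gave 8 in that line (20%, against 14.7%), and starts alone gave 1 (3.03%, against 7.48%). Overlap of TLE3 with FOXA1 sites was 66.7%, 33.3% and 16.7% in MDA-MB-453, SKBR3 and T47D with equal lists, 41% in SKBR3 with either replicate, and in T47D 50% with the upper 50% and 100% in gene bodies. The cause was not tested.

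Leaving out 1 library gave ranges for the window of 9 to 22 genes for TLE3 and 39 to 40 for FOXA1 in MDA-MB-453, 16 to 39 and 36 to 38 in SKBR3, and 23 to 36 and 39 to 40 in T47D. For gene ends they were 0 to 4 and 31 to 36 in MDA-MB-453, 4 to 32 and 25 to 27 in SKBR3, and 9 to 27 and 29 to 34 in T47D. Overlap with FOXA1 ranged over 93.9 to 100%, 30 to 93.8% and 65.6 to 93.5% in the same lines.

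Calls of fewer TLE3 than FOXA1 peaks in the window numbered 0 of the 40 genes and 0 of all genes with the upper 50%, equal lists, scaling per 100000 peaks or the replicate block. The labels give same-numbered replicates only a number in common, so a pairing is not known, and the block allows no p under 0.0312. Leave-one-out counts ranged over 0 to 27 of the 40 genes and 0 to 11269 genes. They were 0 without either MDA-MB-453 TLE3 library, SKBR3 TLE3 replicate 1, T47D TLE3 replicate 1, or any FOXA1 library of SKBR3 or T47D. At gene ends all alternatives gave 0 and 0 calls, also with the block.

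Without reads, depth and precision per peak are unknown, each count has 2 replicates, and neighbouring genes share sites.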
